A study of Mus musculus with 50 samples.

Results

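The libraries described here compare ribosome-bound RNA of D2 receptor-expressing cells with input RNA of the same tissue in unstressed mice. They are the 5 IP libraries titled D2 Con and the 3 input libraries of the same line, 8 of the 50 libraries of the series, and were chosen by their labels alone. All came from the nucleus accumbens (NAc) of C57BL/6 mice of genotype RT; D2-Cre, aged 8 to 12 weeks, under the control condition of a social defeat experiment, that is, without defeat and housed with mice of their own strain. The mice were male according to the study's methods. RT stands for RiboTag, a floxed *Rpl22* allele that gains an HA tag in cells with Cre, and Cre came from a bacterial artificial chromosome transgene (line ER44) driven by the *Drd2* promoter. IPs and inputs therefore share the genotype, and what separates them is the precipitation with an antibody against HA. Each library held tissue pooled from 2 mice, and IPs and inputs share replicate numbers in their titles. Libraries of the D1-Cre line (4 D1-IPs and 3 inputs of control mice) and of defeated D2 mice called resilient (Res) or susceptible (Sus), each with 5 IPs and 3 inputs, are used only where the D2 control enrichment is set against theirs.

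In a RiboTag experiment the tagged ribosomal protein is built into ribosomes only in cells with Cre, so that the precipitate carries the mRNA under translation in those cells, together with whatever RNA sticks to antibody and beads. The input is RNA from the supernatant of the centrifuged homogenate. It holds RNA of the neurons, glia and vessels of the region in proportion to their RNA in that supernatant. Most neurons of the NAc are medium spiny neurons (MSNs), GABAergic projection cells that divide into a D1 type, which uses dynorphin and substance P, and a D2 type, which uses enkephalin. In the striatum the D2 receptor is also made by cholinergic interneurons, and a presynaptic form of it is found on incoming axons. A ratio of IP to input is a ratio of shares of RNA, and a lower share from fewer captured cells cannot be told apart from less RNA per captured cell.

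Promoters of 3 genes that mark D2-MSNs are shown first. These genes rose in the IPs, as did other D2-MSN markers whose promoters are not shown. *Drd2* encodes the D2 receptor, *Gpr6* a receptor coupled to Gs, and *Sp9* a transcription factor needed for D2-MSN development. Each line gives, 5′ to 3′ on the strand of the gene, the 250 bases before the transcription start in the RefSeq annotation of GRCm38.p6. *Drd2* is on chr9:49340153-49340402 (plus strand), *Gpr6* on chr10:41072291-41072540 (minus strand) and *Sp9* on chr2:73271676-73271925 (plus strand). Capitals mark matches on either strand to the full cAMP response element TGACGTCA and to the GC box GGGCGG, which do not overlap each other here.
Drd2: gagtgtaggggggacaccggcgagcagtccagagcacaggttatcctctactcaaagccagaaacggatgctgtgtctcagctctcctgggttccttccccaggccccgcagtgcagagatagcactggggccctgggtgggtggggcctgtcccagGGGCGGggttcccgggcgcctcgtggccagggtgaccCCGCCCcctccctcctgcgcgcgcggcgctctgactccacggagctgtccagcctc
Gpr6: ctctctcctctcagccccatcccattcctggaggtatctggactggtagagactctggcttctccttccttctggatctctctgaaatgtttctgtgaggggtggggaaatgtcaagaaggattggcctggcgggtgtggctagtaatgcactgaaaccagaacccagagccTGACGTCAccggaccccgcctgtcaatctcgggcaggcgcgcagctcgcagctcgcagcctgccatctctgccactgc
Sp9: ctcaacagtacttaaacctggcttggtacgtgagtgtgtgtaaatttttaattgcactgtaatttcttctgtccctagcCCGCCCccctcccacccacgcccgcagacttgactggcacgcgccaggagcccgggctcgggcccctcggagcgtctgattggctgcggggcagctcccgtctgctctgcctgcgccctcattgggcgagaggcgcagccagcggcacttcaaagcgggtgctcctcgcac
The *Gpr6* promoter held 1 cAMP response element, a motif present in 1.55% of the 32851 promoters in the RefSeq table over the same length. *Drd2* held 2 GC boxes and *Sp9* held 1, and a GC box was found in 32.7% of all promoters. These matches are letters in a window and were not tested for binding.

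Depth on genes ran from 21591075 to 28563141 counts in the D2-IPs and from 18650045 to 22880551 in the inputs. Levels are given as CPM, the counts of a gene per 1000000 gene counts of its library, scaled by TMM factors, as mean ± SD over 5 IPs and 3 inputs. Pearson's r of log2 CPM lay between 0.988 and 0.992 for pairs of D2-IPs, between 0.988 and 0.991 for pairs of inputs, and between 0.932 and 0.943 for an IP with an input. Reads that align to no annotated exon, such as those of introns, were counted as no-feature, and their share of no-feature plus gene reads was 14.01% ± 2.19 (SD, n = 5) for IPs against 25.2% ± 0.493 (SD, n = 3) for inputs (two-sided exact permutation test, p = 0.0357, the smallest p that 5 against 3 libraries allow). A pair of IPs stood apart in ribosomal RNA. *Rn45s*, the 45S precursor of ribosomal RNA, took 7.30% and 5.63% of gene counts in IP 2 and IP 5, between 1.67% and 2.07% in the other 3 IPs, and 11.2% ± 0.969 in the inputs. The same libraries had the highest no-feature shares of the IPs, 16.8% and 15.8%, against 11.7% to 13.1%. Results were therefore also computed without both of them. The libraries were sequenced in several sets, and which library was in which set is not given in the sources used here.

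The IP or input part of the labels was checked on 3 genes. *Ppp1r1b*, which encodes DARPP-32 and marks MSNs (chromosome 11, 98348404 to 98357796), lay at 2389, 2115, 1993, 2150 and 2424 CPM in IPs 1 to 5 and at 612, 632 and 720 CPM in inputs 1 to 3. Every IP exceeded every input, and the log2 fold change was 1.76 (standard error 0.13, edgeR adjusted p = 9.38e-10). *Rbfox3*, which encodes the neuronal protein NeuN, lay at 545, 493, 446, 476 and 526 CPM in IPs and at 267, 250 and 254 CPM in inputs, and rose by 0.95 on the log2 scale (standard error 0.06, adjusted p = 2.02e-10). *Gfap*, which encodes an intermediate filament of astrocytes, lay at 3.26, 4.61, 2.02, 2.48 and 2.92 CPM in IPs and at 53.1, 40.3 and 31.2 CPM in inputs, 92.6% lower (log2 fold change -3.78, standard error 0.22, adjusted p = 3.73e-11). All 8 libraries followed the IP or input part of their labels on all 3 genes. These genes cannot check the line or the control condition. In the D1 line their log2 fold changes were 1.23, 0.87 and -3.29, and no difference between the lines was called.

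**Figure D1:**
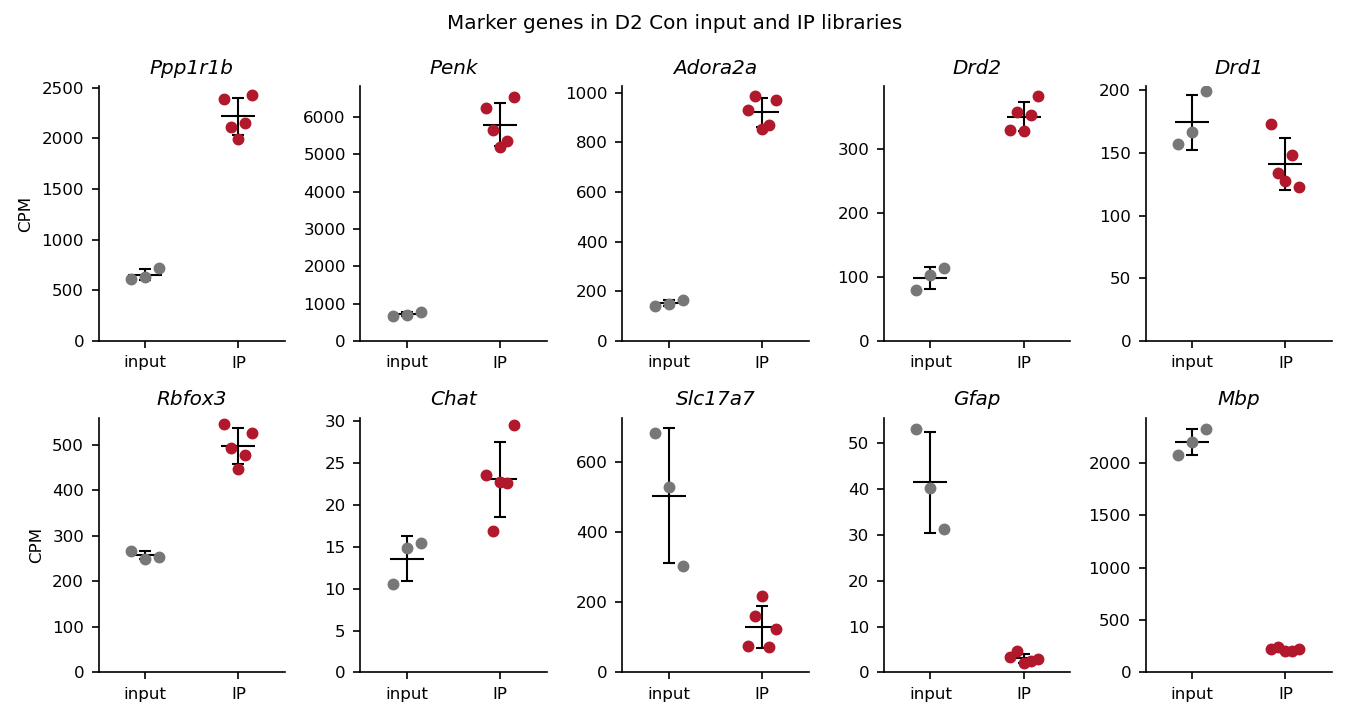
Levels of 10 marker genes in CPM (vertical axes, starting at 0) in the 3 D2 Con inputs (grey) and the 5 D2 Con IPs (red), with one point per library and bars for mean and SD. IPs and inputs separate for every gene drawn except *Drd1*, and *Slc17a7* spreads most among the inputs, from 303 to 684 CPM.

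In all, 14922 genes were tested. A gene was called when its edgeR adjusted p was under 0.05 and its fold change over 1.5. By this rule 2193 genes, 14.7% of those tested, were higher in D2-IPs and 4168 genes, 27.9%, were lower. The changes were lopsided in size as well as number. Past an adjusted p of 0.05, 21 genes were more than 4-fold higher and 1526 more than 4-fold lower, while the median log2 fold change of all genes was -0.05. TMM sets that centre near 0. With scaling by total counts alone it moved to -0.21, and 1262 genes were called higher and 4885 lower, so that the number higher depends on the scaling far more than the number lower.

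**Figure D2:**
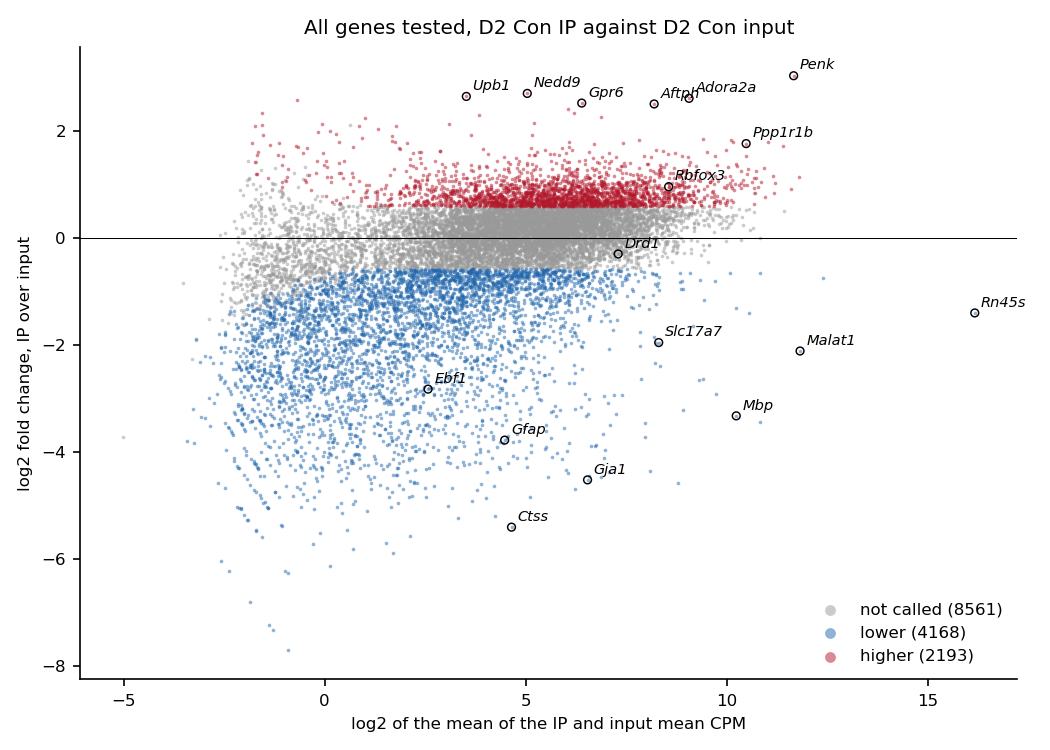
Log2 fold change of D2-IP over input (vertical axis) against log2 of the mean of both groups' CPM (horizontal axis) for the 14922 genes tested, with 2193 called higher in red, 4168 called lower in blue and the others in grey. The lower side reaches farther from 0 than the higher side, where *Penk* is the extreme at 3.03.

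The genes with the largest rise were led by the enkephalin precursor. *Penk* (chromosome 4, 4133531 to 4138819) lay at 6241, 5660, 5185, 5365 and 6537 CPM in IPs and at 673, 692 and 771 CPM in inputs, an 8.14-fold difference (log2 fold change 3.03, standard error 0.14, adjusted p = 1.24e-12). It also had the highest level per length of any gene in the D2-IPs, 3548 CPM per kilobase of exon. *Nedd9*, a scaffold protein of focal adhesions, followed at 57.0 ± 5.97 CPM against 8.78 ± 1.14 CPM (log2 fold change 2.70). *Upb1*, an enzyme of pyrimidine breakdown, and *Adora2a*, the striatal adenosine receptor that opposes D2 signalling, had log2 fold changes of 2.64 and 2.60. The 2 genes are neighbours on chromosome 10, *Adora2a* from 75316877 to 75334784 and *Upb1* from 75401115 to 75441679, both on the plus strand. *Upb1* was much the less abundant of the pair, at 19.8 ± 2.11 CPM in IPs against 920.5 ± 58.3 CPM for *Adora2a*. The other genes of the leading 10 were *Gpr6* (2.51), *Aftph* (2.50), a protein of clathrin-coated vesicle traffic, *Hsf2* (2.41), a heat shock transcription factor, the purinergic receptor gene *P2ry1* (2.33), the calcitonin receptor gene *Calcr* (2.28) and *Bcar1* (2.26), like *Nedd9* an adaptor of the Cas family.

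Among D2-MSN markers 9 of 10 were called higher and none lower, with a median log2 fold change of 1.87. The shares of all genes tested were 14.7% higher and 27.9% lower. *Drd2* lay at 330, 358, 329, 354 and 384 CPM in IPs and at 80.2, 103 and 114 CPM in inputs (log2 fold change 1.82, standard error 0.14, adjusted p = 8.10e-10). *Gpr6* lay at 135, 133, 135, 145 and 170 CPM against 22.2, 23.3 and 29.5 CPM. The genes whose promoters are printed above thus ranged from 1.82 for *Drd2* over 1.91 for *Sp9* to 2.51 for *Gpr6*. The lower end of the called members was *Grik3*, a kainate receptor subunit, at 1.26. *Arhgap6* was the member not called, with 50.5 ± 3.95 CPM against 41.3 ± 5.26 CPM and overlapping groups (log2 fold change 0.29, adjusted p = 0.00581). Summed over the 10 genes, the IPs held 619% of the input level. Most of this sum was *Penk*, at 5797 of 7950 CPM in IPs and 712 of 1285 CPM in inputs.

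Of 21 genes shared by D1- and D2-MSNs, 20 rose and none fell, with a median log2 fold change of 0.97. The cyclase gene *Adcy5* and the G protein subunit *Gnal* had log2 fold changes of 0.96 and 1.16. *Arpp21*, a cAMP-regulated phosphoprotein, was the exception at 0.53, below the fold limit. Its IPs, at 1507 ± 43.9 CPM, did not overlap the inputs, at 1042 ± 64.3 CPM, and it passed the fold limit without input 3 (0.59). Of the 10 markers of D1-MSNs 2 were higher, 3 lower and 5 not called, shares near the 14.7% and 27.9% of all genes tested, with a median of -0.29. *Drd1*, the D1 receptor, lay at 174, 134, 128, 148 and 123 CPM in IPs and at 157, 166 and 200 CPM in inputs, which overlap (log2 fold change -0.30, adjusted p = 0.0391, under the fold limit). *Pdyn*, the dynorphin precursor, fell by 0.62 on the log2 scale. *Ebf1*, a transcription factor of D1-MSNs, fell most, from 7.78, 9.96 and 13.5 CPM in inputs to between 1.34 and 1.74 CPM in IPs (log2 fold change -2.83, adjusted p = 2.87e-10). *Nrgn*, a calmodulin-binding protein, and *Rasgrp2*, a Rap activator, went the other way, at 1.11 and 1.17. *Tac1*, the substance P precursor, had a log2 fold change of 0.55 and was not called, but passed the limit without IP 3, IP 5 or input 3 (0.59, 0.60 and 0.59), and 0.64 without IP 2 and IP 5 together. The muscarinic receptor gene *Chrm4* was not called either (0.22).

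**Figure D3:**
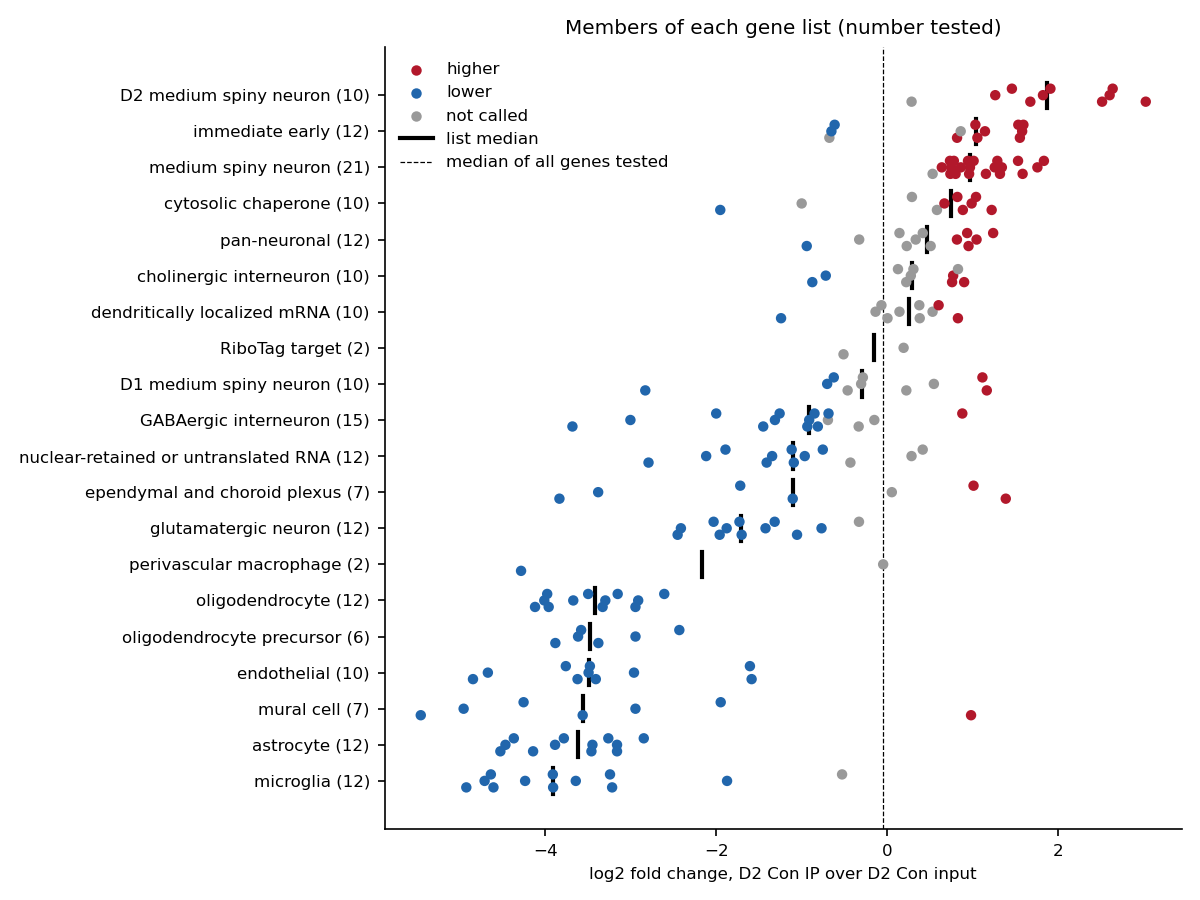
Log2 fold change of D2-IP over input (horizontal axis) for each tested member of 20 gene lists (number tested in parentheses), coloured by call, with a bar at the median of the list and a dashed line at the median of all genes, -0.05. The lists run from D2-MSN genes at 1.87 to microglial genes at -3.91, and no member of the glial and endothelial lists was called higher.

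Genes found in all neurons divided. Of 12, 5 rose, 1 fell and 6 were not called, with a median of 0.46, against 14.7% higher and 27.9% lower among all genes tested. The neuronal enolase *Eno2* rose most (1.24). *Stmn2*, a microtubule regulator of growing axons, fell from 190 ± 26.9 CPM to 98.7 ± 14.8 CPM (log2 fold change -0.94, adjusted p = 1.13e-05), and the RNA-binding protein gene *Elavl4* had a value of -0.33 with overlapping groups.

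Other neuron types of the region were each described by a list, beside shares of 14.7% higher and 27.9% lower among all genes tested. Of 12 genes of glutamatergic neurons, whose cell bodies lie in cortex and other regions rather than in the NAc, 11 fell and none rose, with a median of -1.72. *Slc17a7*, the vesicular glutamate transporter of cortical neurons, lay at 75.6, 161, 218, 71.6 and 124 CPM in IPs and at 684, 529 and 303 CPM in inputs (log2 fold change -1.96, standard error 0.38, adjusted p = 0.000131). The highest library of each group was more than 2-fold above the lowest. *Rorb*, a receptor of cortical layer 4, fell most (-2.45) and *Cux2* was not called (-0.33). Of 15 genes of GABAergic interneurons 11 fell, 1 rose and 3 were not called (median -0.91). The calcium-binding protein *Pvalb* fell from 7.99 ± 0.882 CPM to 4.17 ± 1.64 CPM, and the peptide *Vip* from 7.73 ± 4.19 CPM to 0.617 ± 0.402 CPM (log2 fold change -3.68). *Th*, the enzyme that starts dopamine synthesis, was the member that rose, from 9.48, 6.504 and 7.31 CPM in inputs to 16.02, 14.4, 13.2, 15.6 and 12.1 CPM in IPs (0.88, adjusted p = 7.03e-06).

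Cholinergic interneuron genes were neither depleted nor uniformly enriched. Of 10, 3 rose, 2 fell and 5 were not called, with a median of 0.29. Among all genes tested 14.7% were called higher and 27.9% lower. *Chat*, which makes acetylcholine (chromosome 14, 32408203 to 32465989), lay at 23.6, 16.9, 22.8, 22.7 and 29.5 CPM in IPs and at 10.5, 14.9 and 15.4 CPM in inputs (log2 fold change 0.76, standard error 0.16, adjusted p = 0.000317). *Slc18a3*, which lies within *Chat* and may share its reads, rose by 0.77 with overlapping groups. The 2 that fell were transcription factors at low levels. *Zic4* (-0.88, adjusted p = 0.00914) was not called in the fit with a replicate block (-0.77, adjusted p = 0.0545) or without input 1 (-0.71). *Lhx8* (-0.72, adjusted p = 0.0206) had overlapping groups and was not called without input 3 (-0.33) or without IP 2 (-0.62).

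Every tested gene of the astrocyte, oligodendrocyte, precursor, microglial and endothelial lists was called lower, except the lysosomal gene *Cd68*. Among all genes tested the share called lower was 27.9%. Of 12 astrocyte genes 12 fell (median -3.62), from *Sox9*, a glial transcription factor, at -2.85 to the gap junction gene *Gja1* at -4.53. Of 12 oligodendrocyte genes 12 fell (median -3.41). *Mbp*, a major myelin protein, went from 2074, 2201 and 2327 CPM in inputs to between 203 and 239 CPM in IPs (log2 fold change -3.33), and the range of the list ran from *Aspa* at -2.61 to *Ermn* at -4.12. Of 6 genes of oligodendrocyte precursors 6 fell (median -3.48), with *Cspg4* at -2.43 and *Pdgfra* at -3.88. Of 12 microglial genes 11 fell (median -3.91). *Cx3cr1*, the fractalkine receptor, lay at 5.61 ± 0.949 CPM against 52.8 ± 2.69 CPM, and *C1qb*, a complement subunit, fell most (-4.92). *Cd68* had a log2 fold change of -0.53, under the fold limit, and was called in the fit with a replicate block (-0.61, adjusted p = 0.00096). Of 10 endothelial genes 10 fell (median -3.49), between the receptor gene *Kdr* at -1.59 and *Cdh5* at -4.85, with the tight junction gene *Cldn5* at 1.32 ± 0.483 CPM against 14.6 ± 1.57 CPM. Expressed as summed CPM, IPs held 8.45% of the input level of astrocyte genes, 10.7% of oligodendrocyte, 9.64% of precursor, 9.25% of microglial and 15.7% of endothelial genes. They held 62.3% of GABAergic interneuron, 125% of cholinergic and 214% of shared MSN genes.

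Vascular and ventricular lists had members against the trend. Their counts stand beside 14.7% higher and 27.9% lower among all genes tested. Of 7 mural cell genes 6 fell and 1 rose (median -3.56). *Pdgfrb*, the pericyte receptor, lay at 3.27 ± 1.07 CPM against 24.9 ± 0.904 CPM. *Acta2*, smooth muscle actin, had at most 4 counts in any IP (0.0608 ± 0.0629 CPM against 2.87 ± 0.689 CPM). *Tagln*, an actin-binding protein of smooth muscle, rose from 1.76, 1.70 and 2.34 CPM to between 2.97 and 5.22 CPM (0.98, adjusted p = 0.000724). Of the 9 ependymal and choroid plexus genes 7 were tested, of which 4 fell, 2 rose and 1 was not called. *Foxj1*, the regulator of motile cilia, fell (-1.10). *Tmem212* had at most 1 count in every IP, and its mean in inputs was 1.52-fold the IP floor of 3 counts per library. That mean rests on input 2 (0.413 CPM). Inputs 1 and 3, at 0.100 and 0.0821 CPM, lay under their own floors of 0.151 and 0.123 CPM, so no bound holds for *Tmem212* there. Its call was lost without input 2 (adjusted p = 0.0936). The members that rose were *Clic6*, a chloride channel protein, with 47.2 ± 4.84 CPM against 17.9 ± 6.02 CPM (1.39), and *Kl*, which encodes klotho (1.01), whereas *Rsph1* had overlapping groups (0.05). *Ttr* and *Folr1*, which define choroid plexus, were too low to be tested. Only 2 of 4 perivascular macrophage genes were tested. *Mrc1* fell (-4.28) and *Cd163* had a value of -0.05 with overlapping groups. Of 5 erythrocyte genes only *Alas2* was tested and fell, from 1.16 ± 0.0281 CPM to 0.0961 ± 0.0918 CPM, and *Hba-a1* had a count of 0 in all 8 libraries.

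The largest falls among genes of at least 10 CPM in inputs included several known glial genes. *Ctss*, a lysosomal protease of microglia, lay at 45.0, 49.4 and 52.7 CPM in inputs and between 0.871 and 1.29 CPM in IPs, 97.7% lower (log2 fold change -5.41, standard error 0.15, adjusted p = 1.98e-15). After it came *Efhd1* (-5.23), a calcium-binding mitochondrial protein, the zinc transporter *Slc39a12* (-5.21), the angiotensin precursor *Agt* (-5.01), *C1qb* (-4.92), the tetraspanin *Cd9* (-4.86), the endothelin receptor *Ednrb* (-4.85), the microglial receptor *Gpr34* (-4.84), *C1qa* (-4.71) and the prostaglandin synthase *Ptgds* (-4.69).

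Long noncoding and small nucleolar RNAs were called lower in IPs than in inputs more often than protein-coding genes were. Of 609 long noncoding RNAs tested, 10 (1.64%) were higher and 275 (45.2%) lower, with a median log2 fold change of -0.70. Of 13925 protein-coding genes 2148 (15.4%) were higher and 3740 (26.9%) lower, with a median of -0.01. None of 27 small nucleolar RNA genes was higher and 20 were lower. In a list of RNAs that stay in the nucleus or lack a long reading frame, 9 of 12 tested fell and none rose (median -1.10). *Malat1*, a nuclear RNA of splicing speckles, lay at 1073, 1089, 951, 1131 and 2562 CPM in IPs, where IP 5 was highest, and at 5680, 6036 and 6011 CPM in inputs (log2 fold change -2.12, adjusted p = 1.83e-07). The imprinted *Meg3* fell less (-0.75), *Rian* (-0.96), *Miat* (-1.12) and *Snhg11* (-1.41) lay between, and *Mirg* fell most (-2.79). *Kcnq1ot1* (0.42) and *Peg13* (0.29) were not called. *Rn45s* itself fell (-1.41, adjusted p = 0.0151, and -2.41 without IP 2 and IP 5). *Lars2*, a mitochondrial tRNA synthetase gene, lay at 6329 CPM in IP 2 and between 714 and 1615 CPM in the other IPs and was not called (0.84). The microRNA entry *Mir6236* was not called (-0.52), but was in the fit with a replicate block (-1.25) and without IP 2 and IP 5 (-1.83). *Rn45s* and *Lars2* were chosen after their values were seen.

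By level per length, the D2-IPs were led by *Penk*, the calmodulin gene *Calm2* (1241 CPM per kilobase), *Ndrg4* (998), beta-actin *Actb* (893), *Mir6236* (873), the chaperone *Hsp90ab1* (836), the lysosomal precursor *Psap* (780), *Ppp1r1b* (756), the neuronal protein *Ncdn* (747) and brain creatine kinase *Ckb* (738). Of these, all but *Mir6236* were called higher, with log2 fold changes from 0.93 for *Psap* to 3.03 for *Penk*. Ranking by IP level itself favours genes higher in IPs, so this count cannot be set against the 14.7% of all genes tested. With coding genes split by exon length into 5 classes of like size, 18.4% of the shortest and 11.3% of the longest class were called higher, while 26.9% and 26.5% were called lower.

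Genes of cell state were described by 3 lists, beside shares of 14.7% higher and 27.9% lower among all genes tested. Of 12 immediate early genes, which neurons switch on with activity, 8 rose, 2 fell and 2 were not called (median 1.04). *Egr2* rose most (1.59). *Fos* lay at 14.4, 5.94, 7.95, 14.4 and 15.4 CPM in IPs and at 5.47, 5.52 and 8.13 CPM in inputs, which overlap, and was not called (0.86, adjusted p = 0.087), but was called without IP 2 (1.04) and in a fit of the 8 libraries alone (0.87). *Npas4* fell (-0.65, adjusted p = 0.00775) from 19.6, 22.2 and 19.2 CPM to between 9.33 and 17.997 CPM, and was not called without IP 3 or input 2 (-0.55 and -0.58). *Btg2* fell by 0.61 on the log2 scale (adjusted p = 0.0387), a call that was lost without any 1 of IP 1, IP 2, IP 3, input 1, input 2 or input 3. *Ier2* (-0.68, adjusted p = 0.0832) was not called, but was called in the fit with a replicate block (-0.73) and without IP 3 or input 2 (-0.83 and -0.89). Of 10 chaperone genes 6 rose, 1 fell and 3 were not called (median 0.75). *Hspa8*, the constitutive Hsc70, had 1949 ± 153 CPM against 983 ± 61.4 CPM (0.99), and *Hspa5*, whose protein works in the endoplasmic reticulum rather than the cytosol, rose most (1.22). *Hspb1*, a small heat shock protein, fell from 2.15 ± 0.552 CPM to 0.558 ± 0.219 CPM, and *Hspa1b* was not called (adjusted p = 0.0552), but was called without IP 3 or input 3 (-1.31 and -1.28), among other settings. Of 10 mRNAs that travel to dendrites, 2 rose (*Camk2a* 0.83, *Homer1* 0.60), 1 fell (the scaffold gene *Shank1*, -1.24) and 7 were not called, among them *Bsn* (-0.07), so that the share higher was near the 14.7% of all genes tested and the share lower below the 27.9%. *Rpl22*, the gene that carries the tag, was 29.8% lower in IPs, at 37.2 ± 1.86 CPM against 53.0 ± 1.504 CPM (log2 fold change -0.51, under the fold limit, and -0.68 with scaling by total counts, past it). Its paralog *Rpl22l1* had a value of 0.19 with overlapping groups.

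The enrichments were then compared with those of the D1 line in an interaction test over the 15 control libraries of both lines, which have separate inputs. It called 165 genes (1.11%) with a higher enrichment in D2 and 342 (2.29%) with a lower one. The total of 507 rests on few inputs, since it fell to 282 without D1 input 1, 278 without D2 input 1 and 317 without D2 input 2. Of the 10 D2-MSN markers 9 were higher in D2 and none lower. Within the D1 line 5 of these 10 were themselves called higher in IPs than in inputs and none lower, with a median log2 fold change of 0.51. *Penk* differed by 1.56 on the log2 scale (standard error 0.18, adjusted p = 4.06e-05), and it was also enriched in the D1 line, by 1.46, where IPs held 2248 CPM on average and inputs 817 CPM. *Drd2* differed by 1.49, *Adora2a* and *Gpr6* by 1.66 each and *Upb1* by 1.63. Of the 10 D1-MSN markers 7 were lower in D2, among them *Ebf1* (-3.07), *Drd1* (-1.12), *Chrm4* (-0.74) and *Tac1* (-0.69), and none was higher. The call of *Chrm4* was lost without D1 input 2 (-0.64) and without D2-IPs 2 and 5 (-0.66).

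Among genes of at least 10 CPM in a group, the 3 largest differences in favour of D2 were those of cholinergic genes. In the D1 line *Chat* averaged 1.89 CPM after precipitation and 15.2 CPM before it, a log2 fold change of -3.01, against 0.76 in D2 (difference 3.77, standard error 0.25, adjusted p = 1.35e-07). *Slc5a7*, the choline transporter (3.50), and *Slc10a4*, a carrier of synaptic vesicles (2.93), were the other two, although *Slc5a7* and *Slc10a4* did not differ detectably between D2-IPs and D2 inputs (0.22 and 0.27, overlapping groups). In all 6 of 10 cholinergic markers had a higher enrichment in D2 and none a lower one. *Ttc12* (2.51) lies near *Drd2* on chromosome 9, from 49436963 to 49486225, where *Drd2* runs from 49340627 to 49408177. The mean level of *Ttc12* in inputs was 7.52 CPM in the D2 line and 2.71 CPM in the D1 line, a difference that was not tested. *Mdfic*, an inhibitor of MyoD family factors, differed by 2.34. In the other direction 6 of 12 glutamatergic genes had a lower value in D2, with *Slc17a7* at -2.71 against a D1 line where the IP mean was 605 CPM and the input mean 361 CPM. This difference and that of *Agt* were not called in a fit of all 46 IP and input libraries (adjusted p = 0.0629 and 0.0982). The other leading genes were the peptide gene *Adcyap1* (-3.44, lost without D2 input 1), *Fam19a1* (-3.06), *Agt* (-3.02) and the Wnt antagonist *Frzb* (-2.96). Among the shared MSN genes 3 of 21 were higher in D2. *Ppp1r1b* was not called (0.53, adjusted p = 0.094), nor was any of the 12 genes of the astrocyte list, whose median difference was -0.39. *Agt*, named above, and *Ednrb* (-0.74), which astrocytes are known to express, are not on that list and were called lower in D2. The call of *Ednrb* was lost with a replicate block (-0.68, adjusted p = 0.0837).

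**Figure D4:**
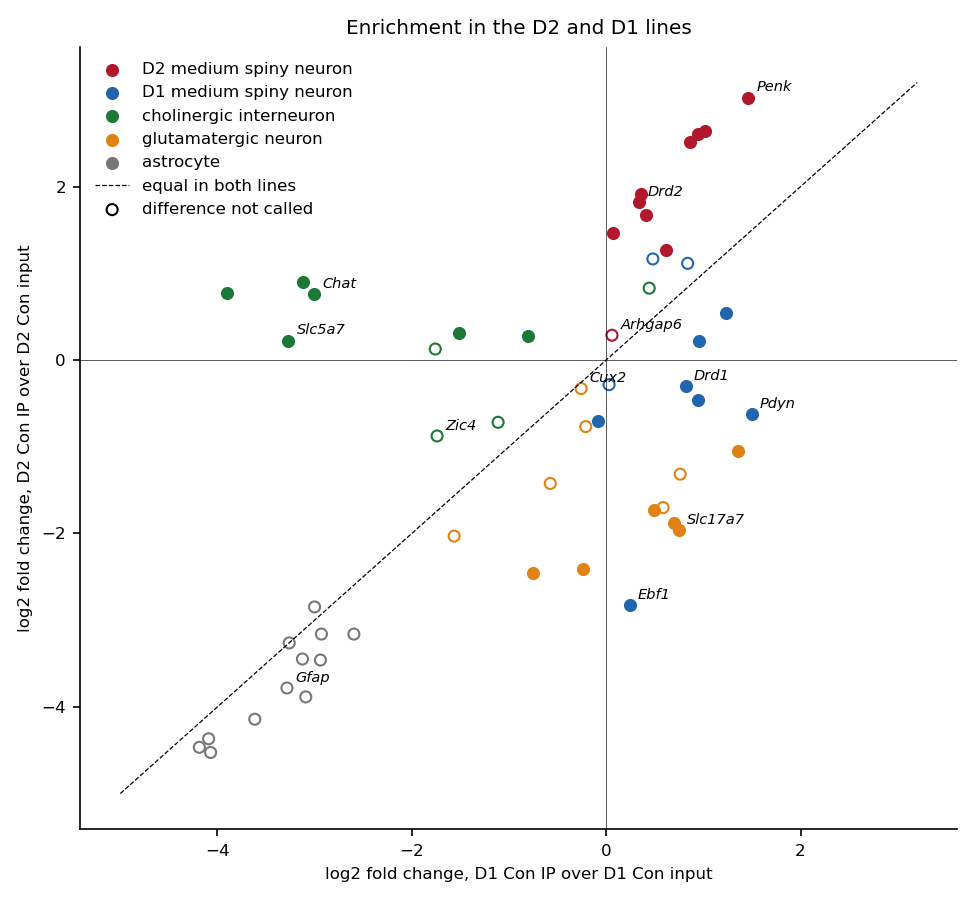
Log2 fold change of IP over input in the D2 line (vertical axis) against that in the D1 line (horizontal axis) for the members of 5 gene lists, filled where the difference between the lines was called and open where it was not, with a dashed line of equality. D2-MSN and cholinergic genes lie above the line, D1-MSN and glutamatergic genes mostly below it, and astrocyte genes close to it.

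The enrichment measured in control mice was then set beside that in defeated mice of the same line, in a model of 24 D2 libraries and 15079 genes. The control libraries gave 2326 genes higher and 4057 lower in this model, the Res libraries 2121 and 3915, and the Sus libraries 2133 and 3839. Of the control calls, 81.9% of those higher and 87.3% of those lower were called the same way in Res (89.8% and 90.4% of the Res calls), and 82.98% and 86.6% in Sus (90.5% and 91.6% of the Sus calls), with 1 gene called in opposite directions in each case. In the interaction test with edgeR, 0 genes (0%) differed between Res and Con and 0 (0%) between Sus and Con, with 273 and 236 genes at an unadjusted p under 0.05, where 0.05 of the genes tested is 754, and DESeq2 also called 0 in both, with 268 and 228 at an unadjusted p under 0.05. *Penk* had log2 fold changes of 2.98 in Res and 3.02 in Sus, *Drd2* of 1.81 and 1.85, and *Ppp1r1b* of 1.64 and 1.71. *Gfap* stood at -3.32 and -3.44. The median of the D2-MSN list was 1.89 in Con, 1.84 in Res and 1.82 in Sus, that of shared MSN genes 0.99, 0.96 and 1.03, and that of astrocyte genes -3.60, -3.38 and -3.29. Immediate early genes had medians of 1.06, 0.81 and 0.67, and none of them was called different.

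**Figure D5:**
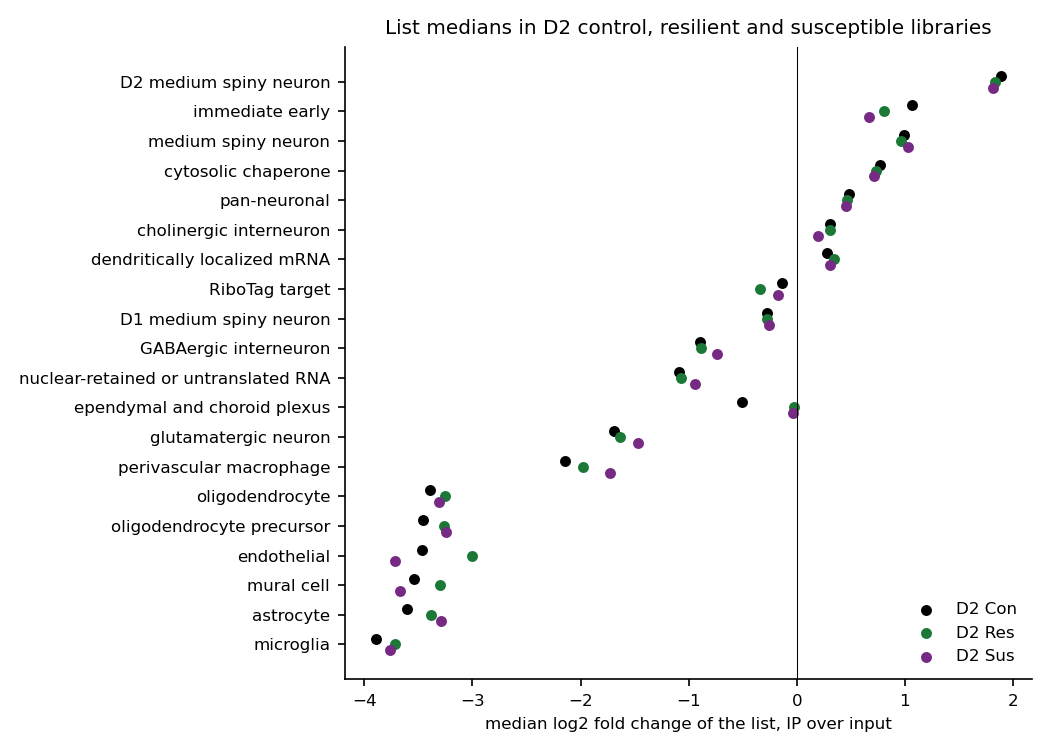
Median log2 fold change of IP over input (horizontal axis) of each gene list in D2 control (black), resilient (green) and susceptible (purple) libraries, from a model of 24 D2 libraries. D2-MSN genes are at the top and glial genes at the bottom in all 3 states, and the medians of endothelial genes lie farthest apart, from -3.71 in Sus to -3.01 in Res.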

How the data were processed

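RNA-seq of the 5 D2 Con IPs and 3 D2 Con inputs is described. Per the labels and the study's methods, poly-A RNA of samples with an RNA integrity number of at least 7 was made into stranded libraries, reads were trimmed with cutadapt, aligned to mm10 with STAR and counted with HTSeq, and the deposited values are those counts by gene symbol, 24552 genes and 5 entries that name no gene. Those entries held 23.3% of reads in IPs and 37.5% in inputs and were left out of library sizes. Versions and the annotation are not given in the sources used here. The authors' columns of 2 libraries with no sample description were not used.

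From the counts, edgeR 4.0.16 (R 4.3.3) computed TMM factors and quasi-likelihood tests with Benjamini-Hochberg adjustment in 1 model of 15 control libraries (a mean per line and fraction), after filterByExpr (count threshold 10, total threshold 15). Stress states were compared in a model of 24 D2 libraries. Positions and exon lengths come from GENCODE vM21 on GRCm38, gene types and promoters from RefSeq. The method was tested on simulated data in which 200 genes changed, as many up as down. The real changes were more numerous and lopsided, a setting that the simulation does not cover. Alternatives were DESeq2 1.42.0, other scalings, filters, thresholds and libraries.

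Replicate numbers shared by an IP and an input were taken as pairs, because inputs were saved from the supernatant of the same sample. The deviations of same-numbered D2 libraries from their group means correlated at -0.0328, -0.0545 and -0.191 over 10935 genes (D1: 0.61, 0.0167 and 0.194). For differently numbered libraries the values ran from -0.179 to 0.22 in D2 and from -0.414 to 0.386 in D1. In D2 the values thus do not show the pairs that the replicate block assumes. No 2 D2 libraries were duplicates (chi-square per gene at least 4.56). The main model held no block for the pairs, so its p-values treat libraries of the same pool as independent. They measure the spread between libraries, each from a pool of 2 mice.

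The lists and the genes compared were chosen with earlier results of these data known. Named are the 3 label genes, the 10 called genes that rose most and the 10 that fell most (no overlap, at least 10 CPM in the higher group), the first, highest, lowest and up to 4 opposed members of each list, the 5 genes with the largest line difference in each direction (at least 10 CPM in a group), the 10 genes highest per length, 5 noncoding RNAs highest in inputs, and *Rpl22*. A list of 13 mitochondrially encoded mRNAs matched no symbol in the table. Some genes that the rule names are not reported here.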

Additional observations from a re-analysis of the deposited data

Results flagged for a closer look

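In 7 of 128 values tested for D2-IPs, 1 library lay far from the other 4, where chance alone gives about 1 in 20. IP 2 was high in *Lars2* (6329 CPM, others 714.5 to 1615), *Pdgfrb* (5.12 CPM, others 2.34 to 3.01), *Rian* (441 CPM, others 275 to 288) and *Tmem212* (0.0512 CPM, others 0), the last by a single count that sets no library apart. IP 5 was high in *Malat1* (2562 CPM, others 951 to 1131). IP 1 was high in *Hspa5* (529 CPM, others 417 to 440) and low in summed endothelial genes (23.8 CPM, others 27.96 to 29.7).

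For 36 genes named above, the log2 fold change of IP over input differed between the D2 and D1 lines in the interaction test of edgeR. It was higher in D2 for cholinergic genes, namely *Chat* (3.77), *Slc5a7* (3.50) and *Slc10a4* (2.93), and for D2-MSN genes, namely *Adora2a* (1.66), *Gpr6* (1.66), *Upb1* (1.63), *Penk* (1.56) and *Drd2* (1.49). It was also higher for *Hspb1* (2.97), *Ttc12* (2.51), *Mdfic* (2.34), *Calcr* (1.88), *Kdr* (1.58), *P2ry1* (1.37), *Th* (0.84), *Meg3* (0.77), *Bcar1* (0.72), *Snhg11* (0.72), *Hsf2* (0.67), *Aftph* (0.65) and *Nedd9* (0.61). It was lower in D2 for *Adcyap1* (-3.44), *Ebf1* (-3.07), *Fam19a1* (-3.06), *Agt* (-3.02), *Frzb* (-2.96), *Slc17a7* (-2.71), *Efhd1* (-1.89), *Rorb* (-1.70), *Stmn2* (-1.45), *Drd1* (-1.12), *Elavl4* (-0.96), *Ermn* (-0.82), *Ednrb* (-0.74), *Chrm4* (-0.74) and *Tac1* (-0.69). The differences of *Nedd9*, *Hsf2*, *Ednrb*, *Elavl4*, *Hspb1*, *Chrm4* and *Adcyap1* each lost their call when 1 library was left out. Those of *Nedd9*, *Agt*, *Ednrb*, *Th*, *Slc17a7*, *Ermn* and *Meg3* lost it in a fit of all 46 IP and input libraries.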

How the results depend on the processing

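No result reversed under any alternative run. The number of genes higher in D2-IPs moved most, to 5149 with no limit on the fold change, 499 with a fold over 2, 1344 when tested against a fold of 1.5 with glmTreat, 1262 with total counts in place of TMM, and 1390 when genes averaging under 50 counts were left out. Leaving out 1 library gave 2095 to 2337 genes higher and 4029 to 4118 lower, log2 fold changes of 1.72 to 1.84 for *Ppp1r1b*, 0.92 to 0.99 for *Rbfox3* and -3.95 to -3.56 for *Gfap*, and 278 to 760 genes different between the lines. The difference in no-feature share ran from -11.9 to -10.6 points, with exact p-values of 0.0571 or 0.0952, the smallest that the reduced groups allow. The cause of these shifts was not tested, apart from the fewer genes or samples that some settings admit.

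With a replicate block, 2190 genes were higher and 3950 lower, 371 differed between the lines, and 0 differed in Res or Sus. *Ppp1r1b*, *Rbfox3* and *Gfap* stood at 1.73, 0.94 and -3.68. Of the genes named, the block ended the call of *Zic4* and the line differences of *Ednrb* (-0.68) and *Hspb1* (2.71), gave calls to *Cd68*, *Ier2* and *Mir6236*, and changed no other call.

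Without IP 2 and IP 5, chosen after seeing the data, 2391 genes were higher and 4080 lower, and 345 differed between the lines. Of 106 named genes 13 changed side of the threshold under at least 1 alternative, as did 12 of the 36 line differences. Genes of a few counts, such as *Tmem212*, are limited by depth.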

Other observations

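The following families were chosen after the data were seen. Of 76 cytosolic ribosomal protein genes none was called higher and 24 (31.6%) were called lower in D2-IPs, against 14.7% and 27.9% of all genes tested, with a median log2 fold change of -0.39. Another family held 89 nuclear-encoded genes of the respiratory chain and ATP synthase, some assembly factors included. Of these 28 (31.5%) were higher and 4 (4.49%) lower, with a median of 0.40. With scaling by total counts the medians were -0.55 and 0.23, of the same sign. Of 70 entries typed as microRNA genes 4 (5.71%) were higher and 46 (65.7%) lower (median -1.57).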
